A study of Mus musculus with 6 samples.

Results

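The genes of the Wnt signalling pathway were examined in 1 list of ATAC-seq peaks from mouse embryonic stem cells (mESCs). ATAC-seq uses the Tn5 transposase, which cuts and tags DNA that is open to it, so a peak marks a stretch of accessible chromatin. The set comprised 41 of the 21000 protein-coding genes that have a curated RefSeq transcript on GRCm38, the assembly that mm10 names. Members were all genes named Wnt or Fzd with a number, together with Lrp5, Lrp6, Ctnnb1, Axin1, Axin2, Gsk3b, Apc, Tcf7, Tcf7l1, Tcf7l2, Lef1 and Dkk1. They were divided by role into 19 ligands (the Wnt genes), 12 receptors (Fzd1 to Fzd10, Lrp5 and Lrp6) and 9 effectors inside the cell (Ctnnb1, Axin1, Axin2, Gsk3b, Apc, Tcf7, Tcf7l1, Tcf7l2 and Lef1), and the secreted antagonist Dkk1 was described by itself. The rule itself uses gene symbols and no accessibility value, although earlier results of these data were known when it was set.

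The series holds 6 ATAC-seq samples in 3 groups of 2: untreated V6.5 cells, a mouse ES cell line, and mESCs with a degron-tagged ZBTB21 at 0 h and at 6 h of auxin, the agent that triggers its degradation, with spike-in controls. The list analysed is that of the untreated V6.5 cells. The treatment text that all samples share mentions doxycycline for degron cells only. The degron groups were not analysed here. The authors deposited 1 joint list for both untreated replicates, with 41014 peaks, 41000 of them on chromosomes 1 to 19, X and Y. It holds no value per replicate, so neither the spread between replicates nor the depth of each library is known, and every result below is a description of this list without a test. Each peak carries a whole-number score between 540 and 953 with a median of 696, which was used to rank peaks within the list. How the score was computed is not given in the sources used here, so a higher score is not read as stronger accessibility. The smallest score equals the scaled score of an IDR (irreproducible discovery rate) of 0.05. The paper used this threshold to keep peaks repeatable between ChIP-seq replicates. A gene without a listed peak is not thereby shown to be closed, since a weak or variable site can miss the authors' threshold.

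The sources differ on the culture. The labels describe growth on irradiated mouse embryonic fibroblasts with serum and leukaemia inhibiting factor. The study's methods name no fibroblasts and add CHIR99021, an inhibitor of the kinase GSK3 that turns on Wnt signalling inside the cell, and PD0325901, an inhibitor of the kinase MEK. Which medium the ATAC-seq cells had, and what part it plays in the peaks described here, was not tested. Of 8 marker genes of ES cells, 7 (87.5%) had a peak in the gene plus 20 kb on either side, Klf4 being the exception, and of 8 fibroblast marker genes 5 (62.5%) had one, Prrx1, Twist1 and Twist2 being the exceptions. The share over all protein-coding genes was 74.8%. Within 1 kb of a TSS a peak was listed for 3 ES cell markers (Pou5f1 with a score of 861, Nanog with 805 and Zfp42 with 892), for 2 fibroblast markers (Thy1 with 829 and Pdgfrb with 602) and for 28.5% of all genes. No such peak was listed for the other ES cell markers Sox2, Esrrb, Klf4, Tfcp2l1 and Tdgf1. The part of feeder cells in the peaks below was not tested.

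In the canonical pathway, a secreted and lipid-modified Wnt protein binds a Frizzled receptor together with the co-receptor LRP5 or LRP6. Without it, a complex of AXIN1 or AXIN2, APC and the kinase GSK3B marks beta-catenin, the product of Ctnnb1, for destruction. With it, beta-catenin persists and joins the DNA-binding TCF/LEF proteins (TCF7, TCF7L1, TCF7L2 and LEF1) at their target genes, of which Axin2 is a widely used reporter. In mESCs the pathway is known for its support of self-renewal, and TCF7L1 is known there as a repressor of pluripotency genes that beta-catenin relieves.

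Some of the accessible DNA is shown first. The first set gives 1 peak within 1 kb of a TSS for each class, since the classes are compared by such promoter peaks below. The higher-scoring promoter peaks of Wnt8a (814), Fzd8 (842) and Gsk3b (919) are not printed here. Each run gives 150 bases of the peak outside all RefSeq exons, 5′ to 3′ on the strand of the gene in GRCm38, with every CG dinucleotide in capitals. The Wnt11 run (chr7:98838035-98838184, + strand) lies in an intron just upstream of a second Wnt11 TSS and holds 12 CG. The Fzd5 run (chr1:64737751-64737900, - strand) ends at the base before the TSS and holds 18 CG. The Axin1 run (chr17:26138251-26138400, + strand) lies in the gene record upstream of the curated TSS and holds 4 CG. The runs lie at different distances from a TSS and leave out exons, so their CG counts do not compare the classes. Within 500 bp of a TSS, the ratio of observed to expected CpG was 0.837 for Wnt11, 0.792 for Fzd5 and 0.858 for Axin1.
Wnt11: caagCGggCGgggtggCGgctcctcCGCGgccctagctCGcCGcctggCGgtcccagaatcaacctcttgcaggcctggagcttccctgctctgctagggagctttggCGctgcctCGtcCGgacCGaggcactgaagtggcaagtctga
Fzd5: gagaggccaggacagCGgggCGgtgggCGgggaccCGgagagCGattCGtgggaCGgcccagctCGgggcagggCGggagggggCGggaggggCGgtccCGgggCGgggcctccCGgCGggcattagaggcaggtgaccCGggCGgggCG
Axin1: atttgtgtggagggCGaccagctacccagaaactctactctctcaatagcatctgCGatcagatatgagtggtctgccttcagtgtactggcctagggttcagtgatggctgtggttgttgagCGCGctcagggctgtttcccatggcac

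The second set comes from peaks away from promoters, and was chosen to show where the letters of the TCF/LEF core do and do not occur. CTTTG, the shared start of the core, and its reverse complement CAAAG are in capitals. The Lef1 peak 7.84 kb upstream of the gene (chr3:131102446-131102595, + strand, score 808) holds 1 such run of letters. The Wnt5a peak 18.07 kb from the TSS and beyond the end of the gene (chr14:28529316-28529465, + strand, score 692) also holds 1. The Fzd2 peak 8.85 kb upstream (chr11:102595523-102595672, + strand, score 816) holds 3. The best peaks of Axin2 (chr11:108928755-108928904, + strand, score 620), Tcf7 (chr11:52297495-52297644, - strand, score 848) and Tcf7l1 (chr6:72677613-72677762, - strand, score 831) hold 0 in the bases printed.
Lef1: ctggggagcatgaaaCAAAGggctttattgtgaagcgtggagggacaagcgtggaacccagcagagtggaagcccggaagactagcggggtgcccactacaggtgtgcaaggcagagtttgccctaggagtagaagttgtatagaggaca
Wnt5a: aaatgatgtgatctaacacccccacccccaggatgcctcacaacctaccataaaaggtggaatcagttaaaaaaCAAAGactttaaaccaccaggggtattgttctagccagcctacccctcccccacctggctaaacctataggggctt
Fzd2: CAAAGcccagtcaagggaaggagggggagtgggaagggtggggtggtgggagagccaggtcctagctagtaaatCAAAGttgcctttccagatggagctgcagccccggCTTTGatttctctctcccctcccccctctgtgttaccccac
Axin2: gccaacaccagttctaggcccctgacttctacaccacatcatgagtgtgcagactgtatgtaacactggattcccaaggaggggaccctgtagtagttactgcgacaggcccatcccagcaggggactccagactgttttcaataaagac
Tcf7: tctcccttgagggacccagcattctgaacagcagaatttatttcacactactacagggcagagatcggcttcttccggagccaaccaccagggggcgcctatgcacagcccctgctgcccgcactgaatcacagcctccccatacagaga
Tcf7l1: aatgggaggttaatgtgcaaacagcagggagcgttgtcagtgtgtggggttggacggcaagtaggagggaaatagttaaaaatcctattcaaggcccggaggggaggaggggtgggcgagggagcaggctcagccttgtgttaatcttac

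To ask where the open sites of the pathway lie, peaks were counted within 1 kb of a TSS, within 5 kb of a TSS, and in the gene plus 20 kb on either side. A peak within 1 kb was listed for 3 of 19 ligands (15.8%), 4 of 12 receptors (33.3%) and 6 of 9 effectors (66.7%). Over all protein-coding genes the share was 28.5%, and over the 41 members it was 31.7%, so the set as a whole stood near the background while its classes were spread to either side. The Wilson 95% intervals were 5.52 to 37.6% for ligands, 13.8 to 60.9% for receptors and 35.4 to 87.9% for effectors. They give only the width that the number of genes allows, since genes are not replicates and no test was made over them. The interval of the effectors lay above the background share, and those of the ligands and the receptors included it. For the effectors this did not hold under 2 of 7 alternatives. With Lrp5, Lrp6 and Dkk1 counted among them the share was 6 of 12 (interval 25.4 to 74.6%), and with only the most upstream TSS of each gene it was 5 of 9 (55.6%, interval 26.7 to 81.1%) against 26.8% of all genes.

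Within 5 kb more ligands and receptors had a peak, while the count of effectors stayed the same. A peak at this distance was listed for 9 ligands (47.4%), 8 receptors (66.7%) and 6 effectors (66.7%), and for 39.2% of all genes. The members that had a peak within 5 kb but none within 1 kb were 6 ligands (Wnt1, Wnt3a, Wnt5b, Wnt6, Wnt9a and Wnt10b), 4 receptors (Fzd3, Fzd7, Fzd9 and Lrp5), Dkk1, and 0 effectors. These 11 members were 26.8% of the set (Wilson 95% interval 15.7 to 41.9%), and the same pattern held for 10.8% of all genes. Their nearest peak edge lay between 1040 bp (Wnt6) and 4128 bp (Dkk1) from a TSS. How this pattern changes under other settings was not computed. Few effectors could show the pattern, since only 3 lacked a peak within 1 kb. The interval over the 9 effectors (0 to 29.9%) included the 10.8%. Of the genes without a peak within 1 kb, 6 of 16 ligands, 4 of 8 receptors and 15.0% of all genes had one within 5 kb. The 4 receptors include Fzd3, whose only peak within 5 kb lay 53 bp from the TSS of the neighbouring gene Fbxo16. Peaks near a neighbour's TSS were counted in the same way for all genes. In the gene plus 20 kb, 39 of 41 members had a peak, against 74.8% of all genes, the exceptions being Wnt16 and Fzd10.

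**Figure D1:**
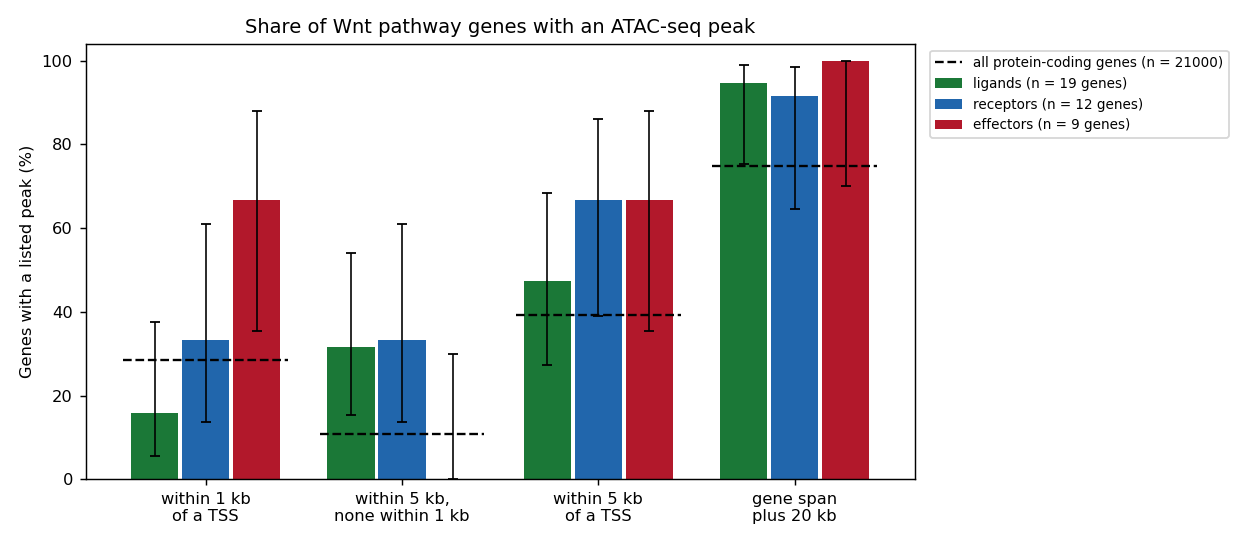
Percent of ligands (n = 19 genes), receptors (n = 12) and effectors (n = 9) with a listed peak in each of 4 windows; error bars are Wilson 95% intervals over genes and dashed lines give the share of all 21000 protein-coding genes. Within 1 kb of a TSS the bars rise from 15.8% through 33.3% to 66.7%, and the second group of bars shows that ligands and receptors, and 0 effectors, had members with a peak between 1 and 5 kb and none closer. Only 3 effectors lacked a peak within 1 kb.

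Promoters rich in CpG are often accessible whatever the state of the gene, so the CpG content of the TSS was set beside these counts. The members' TSSs were richer in CpG than most, with a median ratio of observed to expected CpG within 500 bp of 0.814 against 0.614 over all genes. Among all genes the ratio was higher where a promoter peak was listed (median 0.707 against 0.517). Among the members it hardly differed, with 0.832 in the 13 with a peak within 1 kb and 0.793 in the 28 without. When only genes with a ratio of at least 0.6 were counted, a peak within 1 kb was listed for 38.1% of all genes, 2 of 14 ligands (14.3%), 4 of 12 receptors (33.3%) and 6 of 9 effectors (66.7%). All 12 receptors and all 9 effectors pass this limit, so their shares could not change, and it removed 5 ligands, 1 of them with a peak. The interval of the effectors (35.4 to 87.9%) included the share of CpG-rich genes. Under the same limit, 34 of 35 members (97.1%) had a peak in the gene plus 20 kb, against 89.6% of all genes. The gap in this window was thus narrower among CpG-rich genes than without the limit. Below the limit it was 5 of 6 members against 59.0% of all genes. Within 5 kb, 21 of the 35 CpG-rich members had a peak, against 48.3% of all CpG-rich genes. Ctnnb1 had the most CpG-rich TSS of all members (ratio 1.07, above 99.6% of all genes) and its nearest peak lay 13729 bp away. At the other end, the Wnt8a TSS had the lowest ratio (0.253) and lay inside a peak of score 814.

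**Figure D2:**
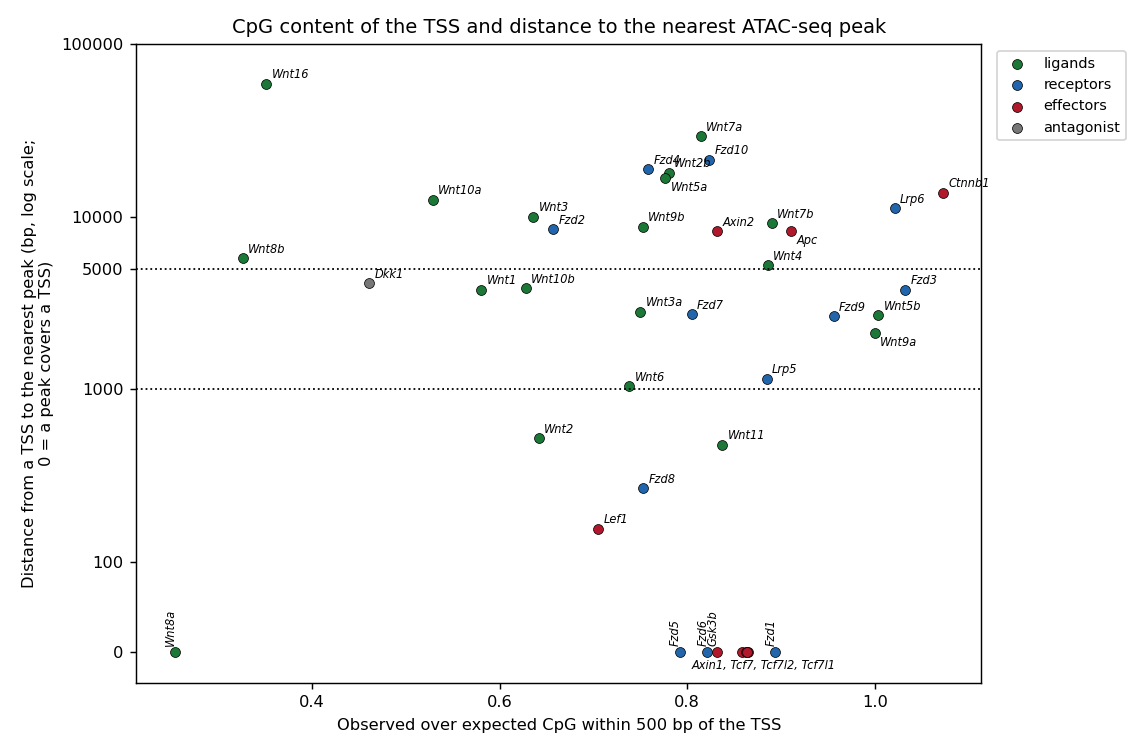
Each point is 1 of the 41 genes, with the observed over expected CpG within 500 bp of its TSS on the x axis and the distance in bp from a TSS to the nearest listed peak on a log y axis, on which 0 marks a TSS covered by a peak; dotted lines mark 1000 and 5000 bp. CpG-rich genes lie at every distance, from Fzd1 and Axin1 at 0 bp to Ctnnb1 at 13729 bp and Wnt7a at 29256 bp.

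Among the ligands, a promoter peak was listed for Wnt8a, Wnt11 and Wnt2. Wnt8a, a ligand of early embryonic patterning, had the highest-scoring one, with a score of 814, and 5 peaks in all. Wnt11, which acts mainly through the pathway that does not use beta-catenin, had a promoter peak of score 622 at its second TSS and 5 more, the widest of 1699 bp and score 684 lying 19.38 kb upstream. The only Wnt2 peak, with a score of 576, was 1153 bp wide and reached to 520 bp from the TSS. These 3 best promoter scores had a median of 622, against a median of 754 for all genes with a promoter peak.

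The ligands with a peak between 1 and 5 kb had higher scores in part. Wnt6 had a peak of score 798 in an intron, with its midpoint 1.34 kb from the TSS. Wnt9a had peaks of 788 and 786 on either side of the TSS, at 4.01 kb upstream and in an intron 2.39 kb downstream. Wnt3a, a ligand of the canonical pathway that is added to ES cell cultures to support self-renewal, had a peak of 774 lying 3.06 kb upstream and its best peak, of 829, in an intron 8.45 kb from the TSS. Wnt5b had 3 intronic peaks near its TSSs with scores of 554, 637 and 676. Wnt1 and Wnt10b, which lie side by side, had 1 peak each within 5 kb, with scores of 630 and 647. The best of the 8 Wnt5b peaks, of 820, lay 180 bp from the TSS of the neighbouring gene Adipor2.

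The remaining 10 ligands had no peak within 5 kb. Wnt8b had peaks of 852, 825 and 803, the first 5.98 kb upstream, and the first was the highest score of any ligand. Wnt10a had 5 peaks and a best score of 842 in a peak 16.28 kb from the TSS, beyond the end of the gene. Wnt5a, the best known ligand of the pathway that does not use beta-catenin, had 3 peaks, all beyond its end, with scores of 768, 692 and 631. Wnt3 and Wnt7b had 3 peaks each with best scores of 752 and 749, and Wnt9b had 2, the better again of 752. Wnt2b, Wnt4 and Wnt7a each had a single peak, with scores of 636, 613 and 555, and the nearest peak to Wnt16 lay 58844 bp from its TSS.

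Wnt genes in part lie in conserved neighbouring pairs, and 10 peaks fell in the windows of both genes of a pair. Wnt3a and Wnt9a shared 3 peaks, Wnt6 and Wnt10a shared 3, Wnt1 and Wnt10b shared 2, and Wnt3 and Wnt9b shared 2. The best Wnt3 peak and the best Wnt9b peak were the same peak (chr11:103758577-103759033), which lies nearer to the Wnt9b TSS. The 158 pairs of gene and peak therefore came from 148 different peaks. The list cannot assign a shared peak to either gene.

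**Figure D3:**
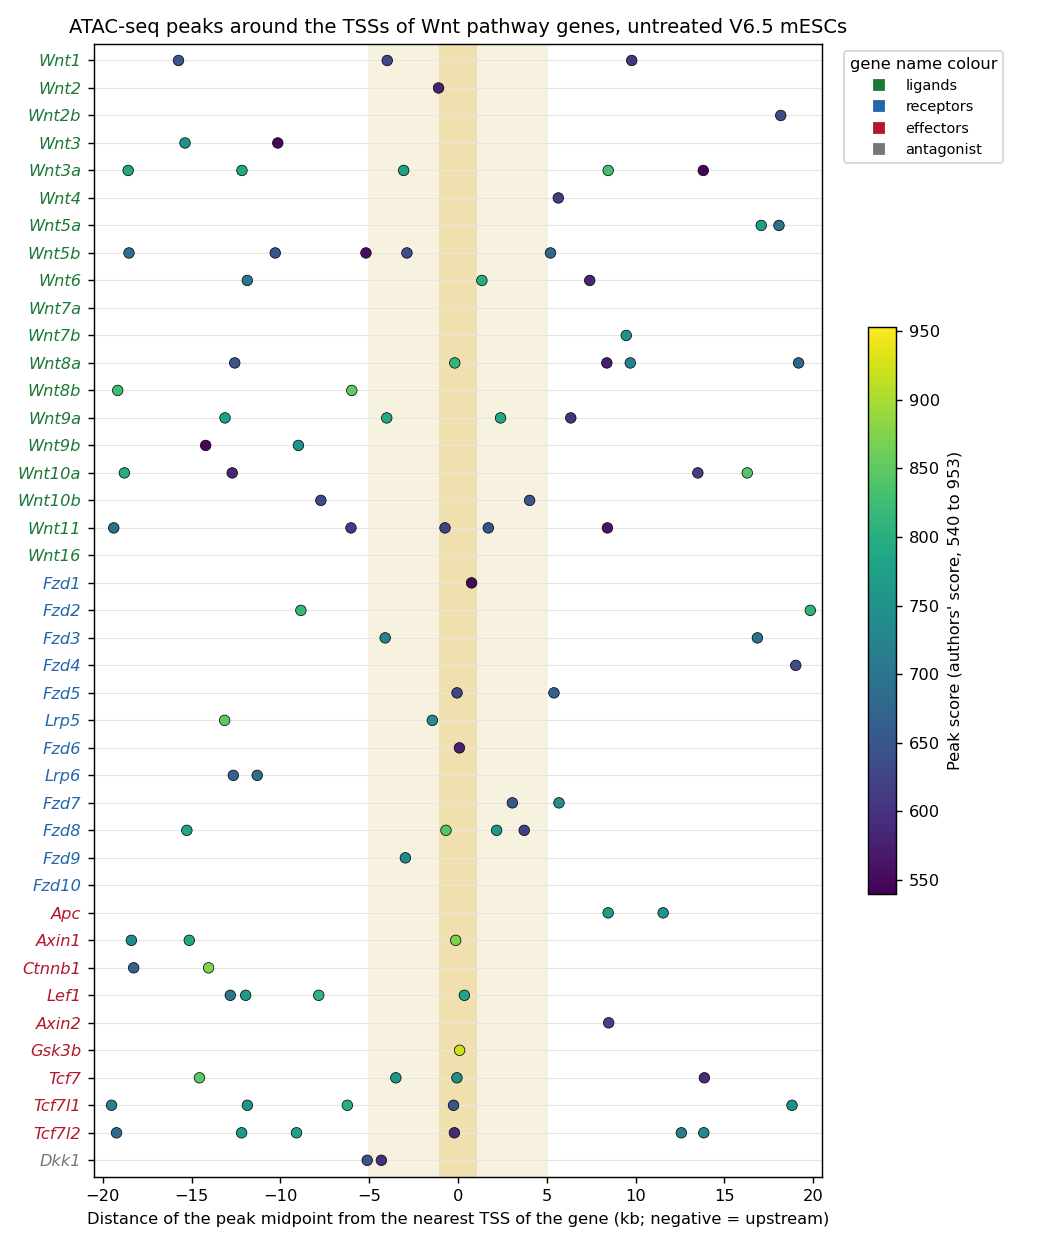
Each point is a listed peak at the distance of its midpoint from the nearest TSS of the gene (x axis, kb, upstream negative), with 1 row per gene, gene names coloured by class and points coloured by score. The map shows the 98 of 158 gene and peak pairs that lie within 20 kb of a TSS, and the shaded bands mark 1 and 5 kb: 6 effectors have a point in the inner band, while many ligands have points only outside it.

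Among the receptors, 4 of the 10 Frizzled genes had a promoter peak and neither co-receptor gene had any. Fzd8 had the highest-scoring one, with a score of 842, and 2 more peaks within 5 kb of the TSS, in the only exon and just past it, with scores of 758 and 619. The other promoter peaks were low in score and wide: 623 for Fzd5 (1022 bp), 576 for Fzd6 (1210 bp) and 549 for Fzd1 (2115 bp). Fzd5 had 2 further peaks, of 666 and 643. The Fzd1 peak was the widest of all member peaks and ran from the TSS into the coding sequence of this single-exon gene. Fzd1 and Fzd6 had no other peak in the gene plus 20 kb.

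Fzd7, a receptor often described in pluripotent cells, had no promoter peak, but a peak of 652 in the untranslated part of its exon 3.06 kb from the TSS and another of 745 just past its end. Fzd9 had a single peak, of 737, 2.96 kb upstream. The Fzd3 peak of 725 lay 4.10 kb upstream and 53 bp from the TSS of the neighbouring gene Fbxo16, and its best, of 730, lay beyond its end. Fzd2 had peaks of 816 and 809 at 8.85 kb upstream and 19.83 kb downstream of its TSS. The only Fzd4 peak, of 635, lay 19.01 kb from the TSS, and the peak nearest to Fzd10 was 21324 bp away, just outside the window.

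The co-receptor genes Lrp5 and Lrp6, which encode closely related proteins, both had 6 peaks. Lrp5 had a peak of 741 with its midpoint 1.45 kb upstream. Its highest score, 933, was also the highest of any member window, but that peak lay 154 bp from the TSS of the neighbouring gene Ppp6r3, and the next best was 850, nearest to another gene's TSS. The nearest Lrp6 peak lay 11186 bp from the TSS, and its best peak, of 771, was intronic and 51.22 kb from the TSS.

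Among the effectors, the promoter peaks included the 2 highest promoter scores of the set. Gsk3b, the kinase gene of the destruction complex, had a peak of 919 over its TSS that was 1333 bp wide (chr16:38088423-38089755), and 8 more peaks with scores of 546 to 721. Axin1, the scaffold of that complex, had a promoter peak of 871 and 3 others. Of the 4 TCF/LEF genes, all had a promoter peak: Lef1 with 779, Tcf7 with 739, Tcf7l1 with 645 and Tcf7l2 with 586. The Lef1 peak lay at an internal TSS and not at the first. Over the 6 effectors the median best promoter score was 759, close to the 754 of all genes with a promoter peak, and the ligands' and receptors' medians were 622 and 599.5. These medians rest on 3 ligands and 4 receptors.

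In each TCF/LEF gene the best peak of all lay away from the promoter. Tcf7l1 had 13 peaks in its window, the most of any member, of which 7 were nearest to its own TSS, as many as for Gsk3b and Tcf7l2. The best of the 13, with a score of 831, was intronic and 111.36 kb from the Tcf7l1 TSS (chr6:72677243-72678137), and lay nearer to the TSS of Tgoln1 (60690 bp). Tcf7 had a peak of 848 that lay 14.56 kb upstream, Lef1 one of 808 that lay 7.84 kb upstream, and Tcf7l2 one of 774 that lay 9.09 kb upstream. Unlike the Tcf7l1 peak, these 3 were nearest to the TSS of that gene.

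No peak within 5 kb was listed for Ctnnb1, Axin2 or Apc. Ctnnb1 had 2 peaks, both upstream, of 873 at 14.04 kb and of 667 at 18.26 kb, the former being among the highest scores of the set. Axin2 had 2 intronic peaks of 620 and 612 at 8.48 and 23.54 kb from the TSS, both below the list median of 696. Apc had 8 peaks, of which 5 were intronic with a best score of 766. Its highest score, 789, belonged to a peak 105 bp from the TSS of the neighbouring gene Srp19. Dkk1, which blocks LRP5 and LRP6 and is itself a known target of the pathway, had 2 peaks of 597 and 646 at 4.32 and 5.11 kb upstream.

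Since genes differ in length, peaks were also counted per length. The median gene length was 22.9 kb for ligands, 5.28 kb for receptors and 102 kb for effectors. The merged windows held 4.59 peaks per 100 kb for ligands, 3.58 for receptors and 4.80 for effectors, and 4.42 for all members against 2.24 for all genes. Without peaks within 1 kb of any TSS the values were 4.18, 2.86 and 4.003, and 3.79 for all members against 1.82 for all genes. The density of the ligands was therefore close to that of the effectors despite their few promoter peaks. Single genes ranged from 0 in Wnt16 and Fzd10 to 10.9 peaks per 100 kb in Wnt8a and Wnt3a, and Wnt11 (10.1), Wnt10a (9.59), Fzd8 (9.23), Tcf7 (9.11) and Wnt9a (8.99) were each denser than at least 93.3% of all genes. Windows of neighbouring members overlap. They were merged for the class values but not for single genes, where a shared peak counted for both genes of a pair. Of the 148 peaks, 41 were nearest to a TSS of a gene outside the set.

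**Figure D4:**
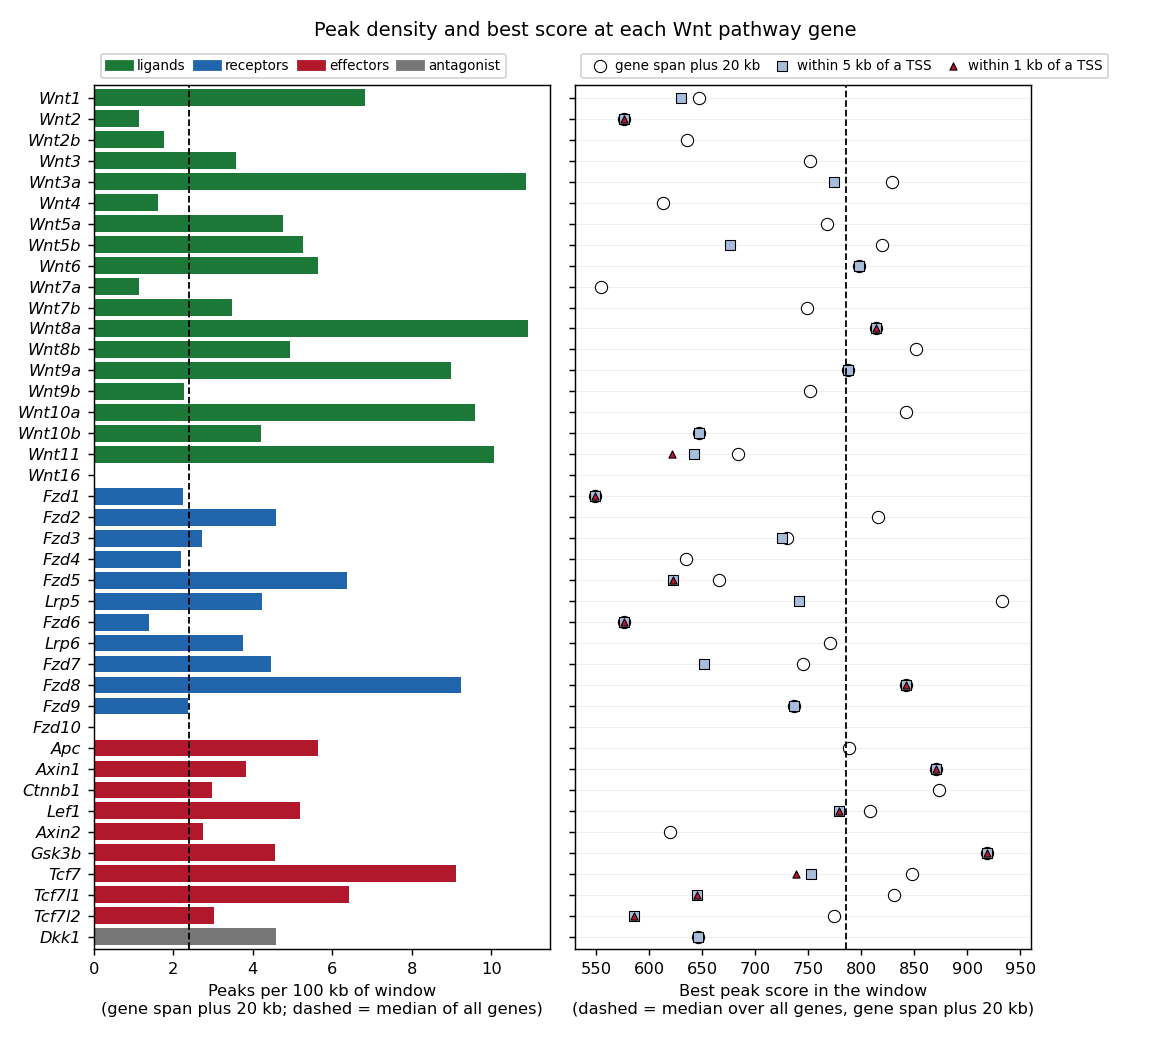
Left, listed peaks per 100 kb of gene plus 20 kb on either side for each gene, without merging the windows of neighbouring genes, coloured by class, with the median of all genes dashed (2.39). Right, the best peak score in the gene plus 20 kb (circles), within 5 kb (squares) and within 1 kb of a TSS (triangles), with the median over all genes for the widest window dashed (786): few triangles lie right of the line, namely those of Wnt8a, Fzd8, Axin1 and Gsk3b.

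In width and score the member peaks were like the rest of the list. Their median width was 556 bp against 547 bp for all peaks, and their median score 687 against 696, with 68 of 148 above the list median. Of the 148 peaks, 57 were intronic, 41 upstream and 39 downstream of the gene, 5 in untranslated and 3 in coding exons, and 3 in a part of the gene record that no curated transcript covers. Where a peak lay in 2 windows, its place in the first was counted.

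The TCF/LEF core was searched as CTTTGAT and CTTTGTT on both strands in the 300 bases at the midpoint of each peak. A core was found in 18 of 148 member peaks (12.2%), and in 13.5% of all 41000 peaks. By class the count was 6 of 56 ligand peaks (10.7%), 7 of 30 receptor peaks (23.3%), 4 of 60 effector peaks (6.67%) and 1 of the 2 Dkk1 peaks. The 18 peaks belonged to 11 members, among them Fzd2, Fzd8 and Lef1 with 2 cores at 1 peak. The ligand peaks with a core were those of Wnt5a, Wnt5b, Wnt8a and Wnt11. The receptor peaks with a core were at Fzd2, Fzd3, Fzd8 and Fzd9, and the effector peaks at Lef1 and Gsk3b. The class shares thus rest on few genes, and their difference was not tested. No core was found in the peaks of Axin2, and none in those of Tcf7, Tcf7l1 or Tcf7l2. A match of letters is not a bound site and does not tell which protein could bind there. Its absence says only that these letters are not in this window.

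The Tcf7 sequence printed above contains the letters AGGGGGCG, which are part of the motif of CTCF, the insulator protein that stops cohesin. After that was seen, AGGGGGCG and AGATGGCG were searched on both strands in the same 300 bases of every peak. They were found in 13 member peaks (8.78%) and in 5.77% of all peaks. Besides the best Tcf7 peak, these included the peak shared as best by Wnt3 and Wnt9b, the second Axin2 peak and the Fzd5 promoter peak, where the letters stand in a longer run rich in G and C. The letters were chosen after the sequences were seen, and the difference was not tested. The letters alone do not tell which protein could bind there.

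For comparison, 49 other genes of the pathway were counted in the same way. A peak within 1 kb was listed for 13 of them (26.5%), one within 5 kb for 18 (36.7%) and one in the gene plus 20 kb for 41 (83.7%), and the first of these shares was near the 28.5% of all genes. By role, a promoter peak was listed for 5 of 11 secreted antagonists, with Frzb, a decoy receptor for Wnt proteins, the highest at 832. It was listed for 1 of 9 genes of the R-spondin module, namely Rnf43 (807), which encodes a ubiquitin ligase that removes Frizzled from the cell surface. Further, it was listed for 1 of 3 genes of ligand maturation (Porcn, the acyltransferase of Wnt proteins, 686), 1 of 6 other receptors (Ptk7, 781), 2 of 8 cytoplasmic components (the higher Gsk3a, the paralogue of Gsk3b, 809), 2 of 8 nuclear cofactors (the higher Ctnnbip1, an inhibitor of beta-catenin binding to TCF proteins, 874) and 1 of 4 target genes (Ccnd1, cyclin D1, 639). The 8 genes with no peak in any window were Wls, Rspo2, Rspo3, Amer1, Nkd2, Tle4, Sp5 and T. Wls carries Wnt proteins to the cell surface, and Sp5 and T are target genes used as readouts of the pathway in mESCs.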

How the data were processed

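ATAC-seq was performed in untreated V6.5 mESCs (2 replicates). The authors deposited 1 list of peaks in mm10 with a score per peak, no strand and no values per replicate. The submitters' processing notes name cutadapt 2.6, Bowtie2 2.3.5.1 and MACS2 2.1.1. The steps of ATAC-seq peak calling, including a shift for Tn5, are not given in the sources used here. The smallest score, 540, equals the scaled score of an IDR (irreproducible discovery rate) of 0.05.

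Genes and the 26032 TSS positions were those of curated RefSeq mRNAs on GRCm38. A peak was counted when it overlapped a window by at least 1 bp. The span was that of the RefSeq gene record. All members were named, and of the other pathway genes the best promoter score per role. Members, gene lists and sequences were chosen with earlier results of these data known. Sequences of at most 150 bases were read from GRCm38 outside exons, from a part of at least 60 bases. Wilson 95% intervals were computed over genes. Alternatives were stricter scores, other windows, TSS sets, classes and motif rules. On simulated peaks, 12000 windows were compared with a direct count and 0 differed. Python 3.11.15, numpy 2.4.6, pandas 2.3.3, scipy 1.17.1 and pysam 0.24.0 were used.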

Additional observations from a re-analysis of the deposited data

How the results depend on the processing

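The order of the classes in the share with a peak within 1 kb (ligands, receptors, effectors) held in 7 of 7 alternatives, while the interval of the effectors lay above the share of all genes in 5 of 7. With only peaks above the list median the margin was narrow, the interval starting at 18.9% against 18.6% of all genes. The 7 alternatives recount the same members and largely the same peaks, so they are not independent of the main count. The window of 5 kb was not among them, and there receptors and effectors had the same share (66.7%). Of 144 alternative values of 28 results, 124 stayed within the tolerance and 20 did not. The share with a peak within 5 kb and none within 1 kb was not among the 28 results. The tolerance was 1.5 times for counts and densities, 1 SD over genes for scores, and the Wilson 95% interval of the value given for shares with the core. With only peaks scoring above the list median, a peak within 1 kb remained for 1 ligand, 1 receptor, 4 effectors and 6 of 41 members. Under the same cut the share of all genes was 18.6%. A peak within 5 kb remained for 4 ligands, 4 receptors and 12 members, and one in the gene plus 20 kb for 11 ligands and 7 receptors. For these wider windows the share of all genes under this cut was not computed. In all, 20 ligand, 15 receptor, 33 effector and 68 member peaks remained. Within 2.5 kb of a TSS the ligands with a peak were 5 of 19, against 33.2% of all genes. Receptor peaks became 18 when Lrp5, Lrp6 and Dkk1 were counted with the effectors, and 53 with a flank of 50 kb. With CTTTG alone, 55.4% of ligand, 63.3% of receptor, 56.7% of effector and 58.1% of member peaks held the core, against 61.1% of all peaks. In whole peaks the member value was 18.9%, against 21.8% of all peaks, and the ligand and effector shares were 19.6% and 11.7%, over 1.5 times the values given though within the tolerance. A gene span of curated transcripts only was chosen after seeing the data. No paired analysis was possible because the list holds no values per replicate, and for the same reason no replicate could be left out. The depth of each library is unknown, so a site missing from the list may lie below the authors' threshold.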
